A study of Homo sapiens with 14 samples.

Results

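The genes described here are 10 regulators and markers of pluripotency: the transcription factors NANOG, POU5F1, PRDM14, UTF1, SALL4 and ZFP42, the chromatin protein DPPA4, the RNA-binding protein L1TD1, the deubiquitinase USP44 and the long noncoding RNA ESRG. They were taken by symbol from a table of 26485 genes, and all 10 were among the 16149 genes with enough counts to be tested.

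Messenger RNA was sequenced from WA01 (H1), a human embryonic stem cell line, and from neural crest cultures induced from it for 5 days, in 7 groups of 2 libraries. The GSK3 inhibitor CHIR99021, which activates Wnt signalling, was given at 10 µM (high Wnt) or 3 µM (low Wnt) from hour 0 to hour 72. Each dose was used with recombinant human TGF-beta 1 at 5 ng/µL, the unit the labels give (+ TGFB), with 10 µM SB431542, an inhibitor of the TGF-beta and activin/nodal type I receptors (+ SB4), or with no additive, and additives stayed in the medium from hour 0 to hour 120. The groups were high Wnt + TGFB, high Wnt + SB4, high Wnt, low Wnt + TGFB, low Wnt + SB4, low Wnt and uninduced stem cells (hESC). The cultures were kept on Matrigel-coated plates in a DMEM/F12 medium with B27 and albumin (BSA), and all groups come from 1 cell line. Whether replicate libraries stem from different cultures is not stated, so a p-value covers only the variation among the libraries sequenced, which can be technical.

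Library totals ran from 10879287 to 19106827 counts. Levels are counts-per-million (CPM) after scaling of the libraries, and levels are compared between genes only as CPM per kilobase of exon (FPKM). The additives were checked on 7 genes that respond to SMAD2/3, the intracellular effectors of TGF-beta and nodal. With SB4, all 7 fell in high Wnt + SB4 against high Wnt (11.6% of all genes were called lower) and 2 of 7, among them SKIL, in low Wnt + SB4 against low Wnt (6.39%). With TGFB, LEFTY1 and LEFTY2 rose in high Wnt + TGFB against high Wnt (3.75% of all genes were called higher), TGFBI fell (3.49% lower) and 4 did not pass the test. In low Wnt + TGFB against low Wnt 5 of 7 rose (13.7% higher), among them SKIL, a feedback regulator, which averaged 133 CPM in low Wnt + TGFB and 30.2 CPM in low Wnt (log2 fold change 2.13, adjusted p = 6.79e-07). In bulk RNA, fewer cells that express a gene and less of its RNA per cell cannot be told apart, and this holds for every level below.

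Pluripotent cells are held in their state by a small set of transcription factors that bind one another's genes and their own, with POU5F1 (OCT4) and NANOG at the centre. In human cells that state resembles the postimplantation epiblast and depends on activin or nodal signalling through SMAD2/3, which acts on NANOG directly. Several other genes of the group are best known as readouts of the state rather than as its drivers.

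The RefSeq promoter table used here (GRCh38.p14) held 5 of the 10 genes: NANOG, ZFP42, DPPA4, L1TD1 and UTF1. Its start sites for NANOG, DPPA4 and L1TD1 lie inside the genes as they were counted, so those windows overlap the genes. The 250 bases before the start site are shown for NANOG, whose window holds a joined site for SOX2 and POU5F1, and for L1TD1 and ZFP42, which rose beside it in low Wnt + TGFB and whose windows differ in the letters CAGAC, the core that SMAD proteins bind. Letters are 5′ to 3′ on the gene's strand, and capitals mark matches on either strand to the joined SOX and POU site (CATTGT, any 1 base, then ATGCAAA) or to CAGAC.
NANOG (chr12:7789152-7789401, plus strand): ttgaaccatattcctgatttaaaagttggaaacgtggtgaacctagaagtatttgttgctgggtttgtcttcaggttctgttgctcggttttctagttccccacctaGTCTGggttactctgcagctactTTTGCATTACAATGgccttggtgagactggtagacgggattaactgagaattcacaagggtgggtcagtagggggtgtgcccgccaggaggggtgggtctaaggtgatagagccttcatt
L1TD1 (chr1:62194599-62194848, plus strand): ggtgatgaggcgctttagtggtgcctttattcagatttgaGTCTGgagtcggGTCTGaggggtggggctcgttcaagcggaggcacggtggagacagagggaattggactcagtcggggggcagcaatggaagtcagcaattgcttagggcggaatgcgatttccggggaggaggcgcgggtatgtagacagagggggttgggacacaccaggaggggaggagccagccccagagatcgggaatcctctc
ZFP42 (chr4:187995521-187995770, plus strand): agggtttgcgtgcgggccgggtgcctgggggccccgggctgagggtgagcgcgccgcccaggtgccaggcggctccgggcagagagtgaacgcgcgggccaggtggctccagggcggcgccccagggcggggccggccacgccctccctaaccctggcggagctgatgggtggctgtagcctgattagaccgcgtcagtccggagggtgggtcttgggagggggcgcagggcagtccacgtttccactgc

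Positions are those of a match's first base along the gene's strand. The joined site in NANOG, which reads on the opposite strand, is at position -120 from the start. Its letters occurred in 2 of 35116 promoter windows of this length (0.0057%). CAGAC begins at position -143 in NANOG, at -210 and -198 in L1TD1 and at -154 in DPPA4, and neither ZFP42 nor UTF1 has it. Of all windows 38.0% hold CAGAC, so its presence in 3 of 5 is a description of these letters and not a sign of binding. CTTTGA, a core of TCF/LEF sites, is in none of the 5 windows and in 11.2% of all windows. The windows of NANOG and DPPA4 were poor in G and C (47.6% and 43.2%), and those of ZFP42 and UTF1 rich (74.4% and 70.8%), against a median of 58.0%.

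Against hESC, 9 of the 10 genes fell in all 6 induced groups, and SALL4 was not called lower in any. Of all genes tested, 31.8% to 36.1% were called lower in each comparison, and the share called lower in all 6 was not computed. In low Wnt + TGFB the 9 genes kept 19.7% to 68% of their hESC level (median 30.2%), in low Wnt 1.38% to 41.4% (median 5.37%) and in low Wnt + SB4 0 to 34.5% (median 0.404%). The medians of the 9 were 0.615% in high Wnt + TGFB, 0.0669% in high Wnt + SB4 and 0.761% in high Wnt. In high Wnt + TGFB and in high Wnt the median is the UTF1 value, which rests on 2 counts over each group. In high Wnt + SB4 UTF1 had 0 counts and the median is the ESRG value. The lower median in high Wnt + SB4 therefore hangs on these few UTF1 counts and shows no effect of SB4.

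**Figure D1:**
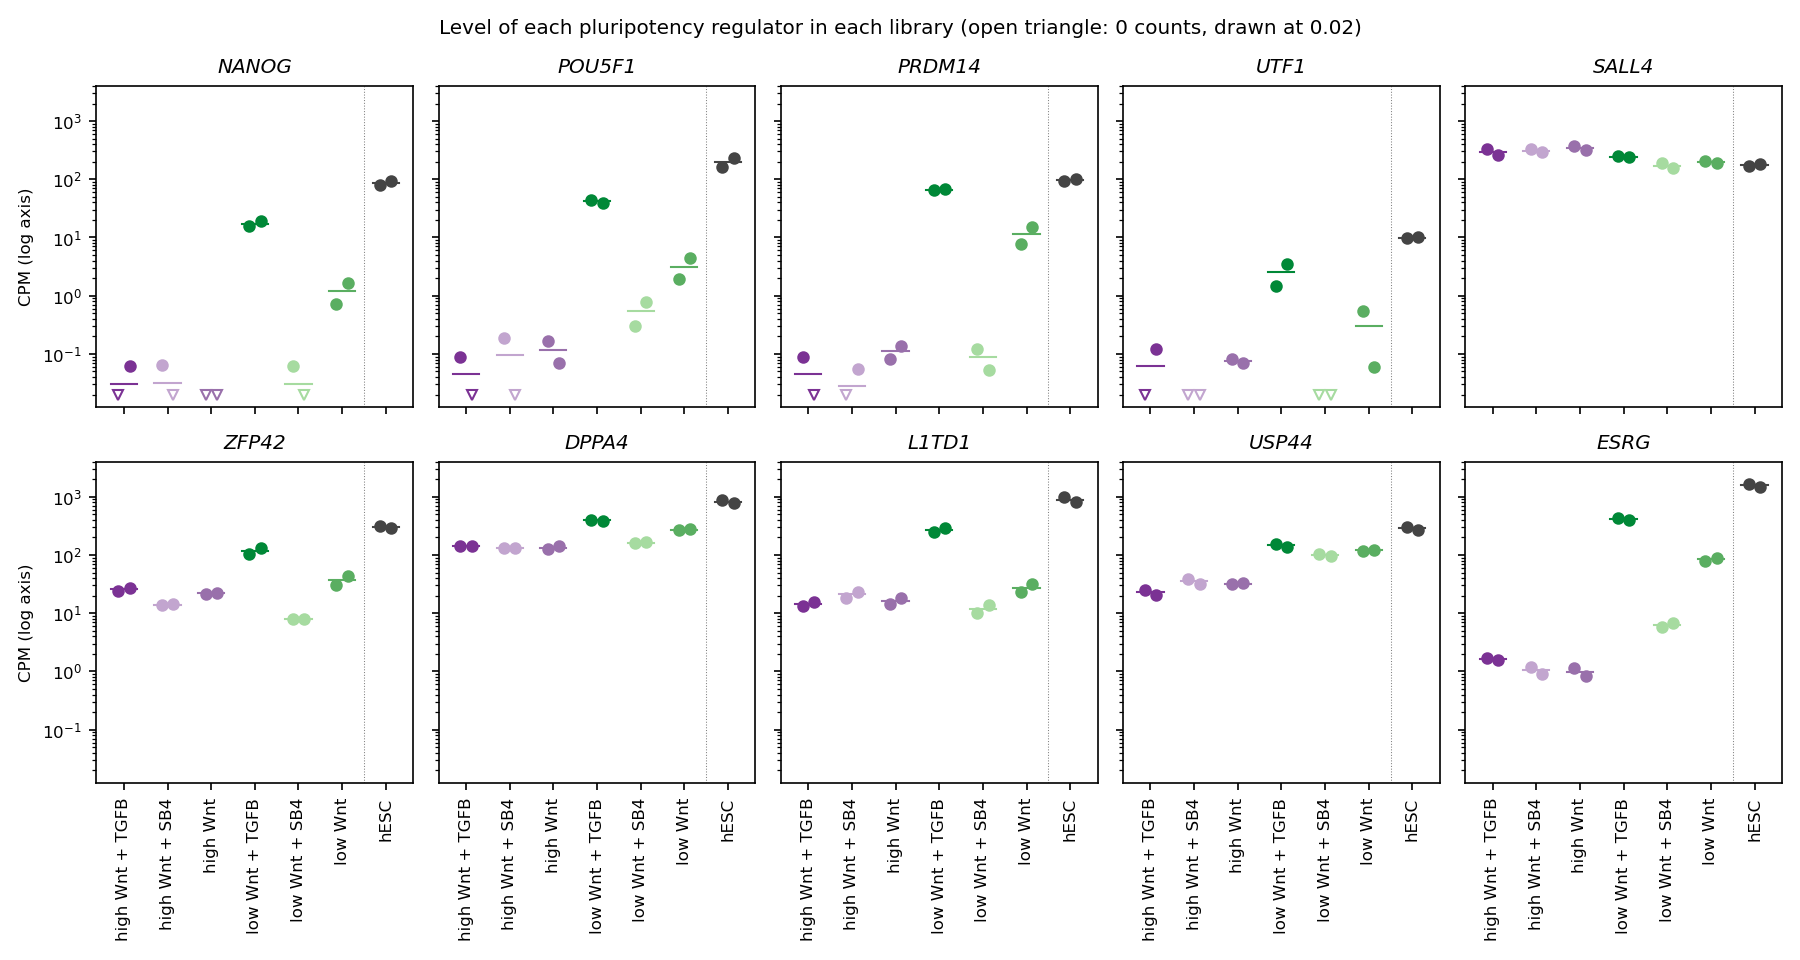
Level of each of the 10 genes in each of the 14 libraries, in CPM on a log axis, with groups along the horizontal axis, points for libraries, a bar for the group mean and open triangles at 0.02 for libraries with 0 counts. NANOG, POU5F1, PRDM14 and UTF1 lie at or near 0 counts in all 3 high Wnt groups, while SALL4 lies between 155 and 369 CPM in every library.

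**Figure D2:**
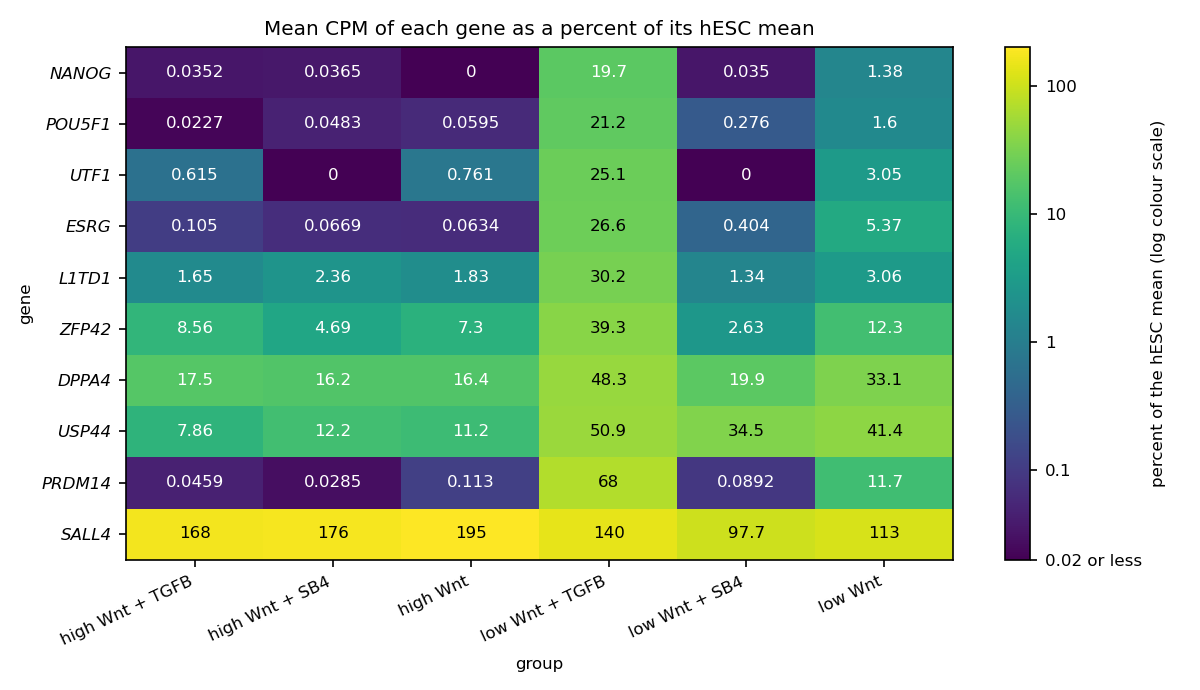
Mean level of each gene in each induced group as a percent of its hESC mean, with the value printed in each cell and colour on a log scale; genes are ordered by their level in low Wnt + TGFB. NANOG keeps 19.7% of its hESC level in low Wnt + TGFB and PRDM14 68%, while the SALL4 row lies between 97.7% and 195%.

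NANOG, a homeodomain factor of the core network (chromosome 12, 7789396 to 7796061, hg38, plus strand), was the gene with the smallest share left in low Wnt + TGFB. It had 15.4 and 18.9 CPM in low Wnt + TGFB, 1 count over both libraries of low Wnt + SB4, 0.731 and 1.67 CPM in low Wnt, and 80.6 and 93.5 CPM in hESC. In the high Wnt groups it had 1 count over both libraries with TGFB, 1 with SB4 and 0 with no additive. The groups low Wnt + TGFB, low Wnt and hESC did not overlap, and the other 4 groups overlapped at the detection limit. Against hESC the log2 fold change was -2.34 ± 0.21 (SE) in low Wnt + TGFB (adjusted p = 1.23e-07) and -6.16 ± 0.28 in low Wnt (adjusted p = 2.46e-11). With 1 count in low Wnt + SB4 the ratio of hESC to it was 3070 (exact 95% counting interval 551 to 121000), and the interval covers counting error only.

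POU5F1, the POU-domain factor OCT4 (chromosome 6, 31164337 to 31170693, minus strand), had 44.9 and 38.9 CPM in low Wnt + TGFB, 0.305 and 0.786 CPM in low Wnt + SB4, 1.95 and 4.36 CPM in low Wnt, and 164 and 231 CPM in hESC. In the high Wnt groups it had 1 count over both libraries with TGFB, 3 with SB4 and 3 with no additive. No library of low Wnt + TGFB came near one of low Wnt or of hESC. The log2 fold change against hESC was -2.24 ± 0.22 in low Wnt + TGFB (adjusted p = 2.84e-07), -8.44 ± 0.35 in low Wnt + SB4 and -5.96 ± 0.29 in low Wnt.

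The POU5F1 row may not hold all of the gene's reads. It is listed on 7 contigs, and reads that map to more than 1 place were not counted, while the near-identical retrocopies POU5F1B, POU5F1P3 and POU5F1P4 have rows of their own. POU5F1P3 averaged 90.2 CPM in hESC and POU5F1B 42.4 CPM, and the reads cannot be divided between copies with confidence. Summed over the POU5F1 row and the 4 rows of its copies, the level was 81.1 and 75.2 CPM in low Wnt + TGFB, 0.853 and 0.995 CPM in low Wnt + SB4, 6.64 and 6.93 CPM in low Wnt, and 301 and 379.6 CPM in hESC. The sum kept 0.191% of the hESC level in high Wnt, 23.0% in low Wnt + TGFB and 1.99% in low Wnt, where the POU5F1 row alone kept 0.0595%, 21.2% and 1.60%. The low Wnt libraries differed 2.24-fold in the POU5F1 row, with replicate 2 higher, but were near equal in the sum. NANOG and PRDM14 differed 2.29-fold and 1.98-fold between the same libraries, also with replicate 2 higher. The cause of the gap in the POU5F1 row was not tested, and no test was run on the sum.

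PRDM14, a zinc-finger protein that represses differentiation genes (chromosome 8, 70051651 to 70071327), had the largest share of its hESC level left in low Wnt + TGFB among the 9 genes that fell. It had 66.1 and 66.7 CPM in low Wnt + TGFB, 3 counts over both libraries of low Wnt + SB4, 7.67 and 15.2 CPM in low Wnt, and 93.3 and 102 CPM in hESC, with at most 3 counts over the group in each high Wnt group. The low Wnt + TGFB libraries lay below both hESC libraries without overlap. The fall was a log2 fold change of -0.56 ± 0.19 (adjusted p = 0.0188). It was no longer called without either low Wnt + TGFB library or without hESC replicate 2 (adjusted p up to 0.105), nor with library totals alone as the scale (log2 fold change -0.38, adjusted p = 0.0996). In low Wnt the fall was -3.09 ± 0.22 (adjusted p = 2.12e-09).

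UTF1, a chromatin-bound factor of undifferentiated cells (chromosome 10, 133230274 to 133231558, plus strand), was the least abundant of the 10 in hESC, at 8.62 FPKM. It had 1.49 and 3.51 CPM in low Wnt + TGFB, 0 counts in low Wnt + SB4, 0.548 and 0.0598 CPM in low Wnt, and 9.77 and 10.2 CPM in hESC. The low Wnt values rest on 9 counts and 1 count, so their difference says little, and they overlap the high Wnt group. UTF1 was at least 118-fold lower in low Wnt + SB4 than in hESC and at least 112-fold lower in high Wnt + SB4 (with 3 counts over the group taken as its limit). The fall in low Wnt + TGFB was -1.97 ± 0.45 on the log2 scale (adjusted p = 0.00143).

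ZFP42 (REX1), a zinc-finger factor used as a marker of the undifferentiated state (chromosome 4, 187995771 to 188005049, plus strand), stayed detectable everywhere. It had 105 and 132 CPM in low Wnt + TGFB, 7.80 and 8.02 CPM in low Wnt + SB4, 30.0 and 44.1 CPM in low Wnt, and 309 and 292 CPM in hESC. The high Wnt groups stood at 23.8 and 27.6 CPM with TGFB, 14.04 and 14.15 CPM with SB4, and 21.7 and 22.1 CPM with no additive. No neighbouring groups in this order overlapped, and low Wnt + SB4 was the lowest of all 7 groups, below every high Wnt library. The log2 fold change against hESC was -1.34 ± 0.14 in low Wnt + TGFB, -5.25 ± 0.18 in low Wnt + SB4 and -3.02 ± 0.15 in low Wnt.

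DPPA4, a DNA-binding chromatin protein (chromosome 3, 109326141 to 109337572, minus strand), kept more than most. It had 398.5 and 391 CPM in low Wnt + TGFB, 159 and 167 CPM in low Wnt + SB4, 264 and 278 CPM in low Wnt, and 866 and 768 CPM in hESC. The 3 high Wnt groups lay between 126.5 and 144 CPM. Each low Wnt group was apart from the next, while high Wnt + SB4 and high Wnt overlapped. The log2 fold change against hESC was -1.05 ± 0.09 in low Wnt + TGFB, -2.33 ± 0.10 in low Wnt + SB4 and -1.59 ± 0.09 in low Wnt.

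L1TD1, an RNA-binding protein derived from a LINE-1 element (chromosome 1, 62194802 to 62212328, plus strand), had 245 and 293 CPM in low Wnt + TGFB, 10.2 and 13.7 CPM in low Wnt + SB4, 23.3 and 31.2 CPM in low Wnt, and 975 and 805 CPM in hESC. In the high Wnt groups it had 13.5 and 15.8 CPM with TGFB, 18.4 and 23.6 CPM with SB4, and 14.2 and 18.4 CPM with no additive. Only hESC and low Wnt + TGFB stood clear of every other group, and each of the other 5 groups overlapped its neighbour in the order of means. The log2 fold change against hESC was -1.73 ± 0.16 in low Wnt + TGFB, -6.21 ± 0.20 in low Wnt + SB4 and -5.03 ± 0.19 in low Wnt.

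ESRG, a noncoding RNA transcribed from an endogenous retrovirus of the HERVH family (chromosome 3, 54632124 to 54639857, minus strand), was the most abundant of the 10 in hESC per length, at 500.1 ± 48.9 FPKM (SD, n = 2). It had 434 and 402 CPM in low Wnt + TGFB, 5.91 and 6.76 CPM in low Wnt + SB4, 78.9 and 89.7 CPM in low Wnt, and 1678 and 1461 CPM in hESC. The high Wnt groups lay between 0.825 and 1.70 CPM, on 12 to 26 counts per library. ESRG spanned the widest range of the genes detected in every library, with 0.0634% of the hESC level left in high Wnt, 26.6% in low Wnt + TGFB and 5.37% in low Wnt. It lies inside CACNA2D3, on the opposite strand; counts were made by strand, and CACNA2D3 stood at 4.05 CPM in hESC.

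USP44, a deubiquitinase that acts on histone H2B (chromosome 12, 95516560 to 95551490, minus strand), had 155 and 139 CPM in low Wnt + TGFB, 104 and 95.3 CPM in low Wnt + SB4, 119.5 and 119.7 CPM in low Wnt, and 308 and 269.9 CPM in hESC. In the high Wnt groups it had 24.8 and 20.6 CPM with TGFB, 38.3 and 32.1 CPM with SB4, and 31.5 and 33.3 CPM with no additive. The low Wnt groups lay within 34.5% to 50.9% of hESC, and every high Wnt library was below every low Wnt library.

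SALL4, a zinc-finger factor of stem cells that is also used in early embryonic tissues (chromosome 20, 51784044 to 51802509, minus strand), went the other way. It had 331 and 257 CPM in high Wnt + TGFB, 326 and 289 CPM in high Wnt + SB4, and 369 and 314 CPM in high Wnt. The low Wnt groups had 250.5 and 239 CPM with TGFB, 187 and 155 CPM with SB4, and 205 and 191 CPM with no additive, against 170.4 and 179.5 CPM in hESC. All high Wnt libraries were above all others, and low Wnt + SB4 overlapped hESC. The rise over hESC was 0.75 ± 0.13 in high Wnt + TGFB, 0.81 ± 0.13 in high Wnt + SB4, 0.96 ± 0.13 in high Wnt and 0.48 ± 0.13 in low Wnt + TGFB (adjusted p = 0.00334). The log2 fold change was -0.03 ± 0.13 in low Wnt + SB4 (adjusted p = 0.825) and 0.18 ± 0.13 in low Wnt (adjusted p = 0.221).

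Counted over the 10 genes, 9 were lower and 1 higher than hESC in high Wnt + TGFB, in high Wnt + SB4, in high Wnt and in low Wnt + TGFB. In low Wnt + SB4 and low Wnt, 9 were lower and SALL4 did not pass the test. Of all genes tested, 35.5% were called lower in high Wnt + TGFB, 35.7% in high Wnt + SB4, 36.1% in high Wnt, 31.8% in low Wnt + TGFB, 35.6% in low Wnt + SB4 and 35.6% in low Wnt. The shares called higher were 36.7%, 36.4%, 36.3%, 31.4%, 35.6% and 35.8% in the same order, so a call of higher, as for SALL4, was common among all genes. The median log2 fold change of the 10 was -1.54 in low Wnt + TGFB and -3.66 in low Wnt, against 0.02 and 0.00 over all genes. With genes of 3 or fewer counts set at that floor, it was -6.21 in high Wnt + TGFB, -6.10 in high Wnt + SB4, -6.11 in high Wnt and -6.55 in low Wnt + SB4. These comparisons share the hESC libraries.

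The comparison of TGFB with no additive asked what TGF-beta 1 changed at each dose. At the low dose 8 of the 10 genes were higher in low Wnt + TGFB than in low Wnt, where 13.7% of all genes were called higher and 12.2% lower. The 3 largest differences were in NANOG by 3.82 ± 0.28 on the log2 scale (adjusted p = 7.53e-08), POU5F1 by 3.72 ± 0.28 (adjusted p = 5.29e-08) and L1TD1 by 3.30 ± 0.18 (adjusted p = 2.03e-09). UTF1 rose by 3.04 ± 0.63, PRDM14 by 2.54 ± 0.21, ESRG by 2.31 ± 0.11, ZFP42 by 1.67 ± 0.15 and DPPA4 by 0.54 ± 0.09. The UTF1 difference rests on 9 counts and 1 count in low Wnt and ran from 2.19 without low Wnt replicate 2 to 5.22 without low Wnt replicate 1 (adjusted p up to 0.0467 over all libraries left out). Without low Wnt replicate 1 the difference was 3.35 for NANOG and 3.26 for POU5F1, and without low Wnt replicate 2 it was 4.54 and 4.42. The differences for SALL4 (0.31 ± 0.13, adjusted p = 0.0866) and USP44 (0.30 ± 0.11, adjusted p = 0.0610) did not pass the test, and both passed it under several other settings, among them the fit of these 4 libraries alone (adjusted p = 0.0176 and 0.0252). The median of the 10 was 2.42, against -0.01 over all genes.

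At the high dose TGFB moved 1 of the 10, where 3.49% of all genes were called lower and 3.75% higher. USP44 was lower in high Wnt + TGFB than in high Wnt by a log2 fold change of -0.52 ± 0.13 (adjusted p = 0.0190), a call lost without high Wnt + TGFB replicate 2, high Wnt replicate 1 or high Wnt replicate 2 (adjusted p up to 0.243). NANOG, POU5F1, PRDM14 and UTF1 were at 3 counts or fewer in both groups and give no fold. The median of the other 6 was -0.03. The difference of the TGFB effects, high minus low dose, passed the test for 5 genes, all with the smaller value at the high dose, where 6.06% of all genes were called that way and 5.73% the other way: L1TD1 (-3.46 ± 0.27), ESRG (-1.57 ± 0.35), ZFP42 (-1.44 ± 0.22), USP44 (-0.82 ± 0.17) and DPPA4 (-0.45 ± 0.13). The DPPA4 difference (adjusted p = 0.0335) was lost in 7 fits that left out 1 library each, and the ESRG difference (adjusted p = 0.00681) without high Wnt replicate 1 (adjusted p = 0.101). For the 4 genes near 0 counts at the high dose the difference did not pass the test and depends on 3 or fewer counts. POU5F1 (-5.16 ± 2.23, adjusted p = 0.158) passed it with no filter (adjusted p = 0.00889) and by DESeq2 (adjusted p = 0.0129), and PRDM14 (-3.97 ± 1.82, adjusted p = 0.186) without low Wnt replicate 2 (-4.55, adjusted p = 0.0360).

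**Figure D3:**
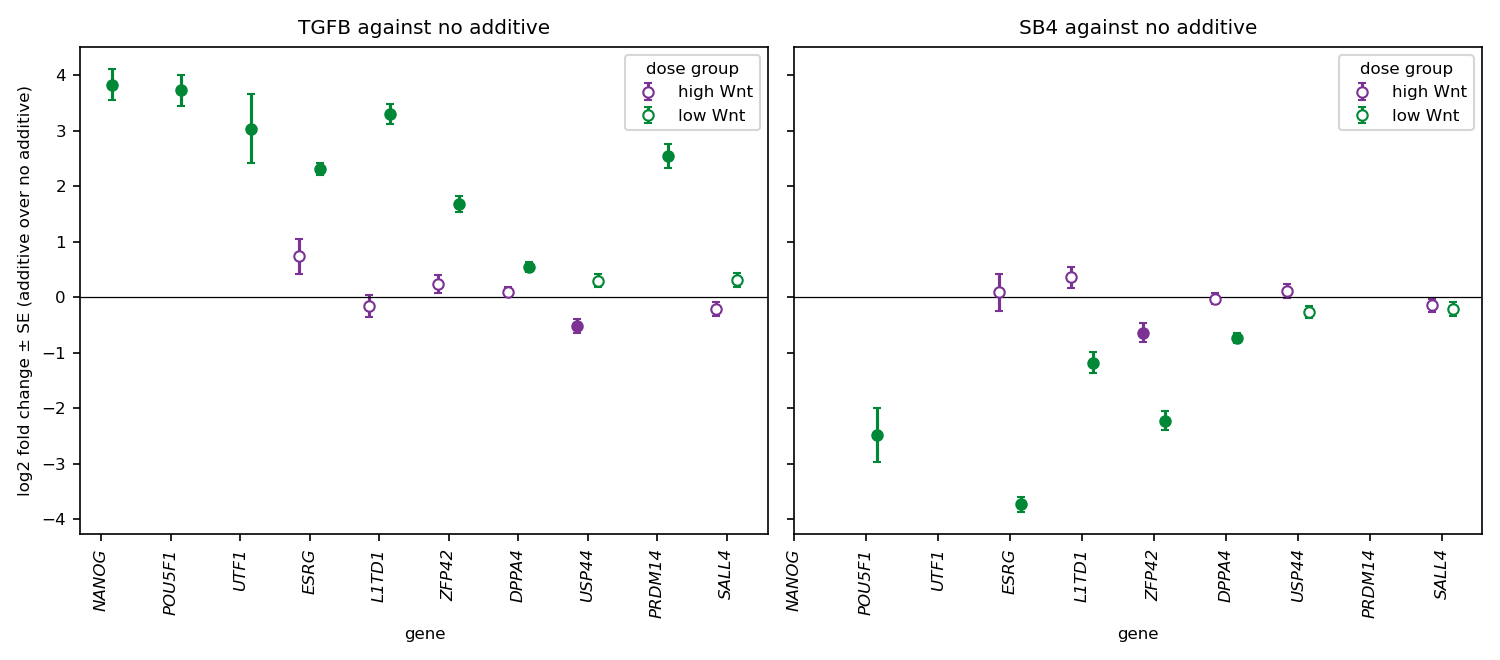
Log2 fold change with its SE for TGFB (left) and SB4 (right) over no additive, for each gene along the horizontal axis; purple stands for the high Wnt dose, green for the low Wnt dose, and filled points passed the test at an adjusted p under 0.05. Genes with 3 or fewer counts over either group are not drawn. At the low dose the TGFB points lie above 0 and the SB4 points below it, while at the high dose only USP44 with TGFB (-0.52) and ZFP42 with SB4 (-0.64) are filled.

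The comparison of SB4 with no additive asked what inhibition of the receptors changed. At the low dose 7 of the 10 genes were lower in low Wnt + SB4 than in low Wnt, where 6.39% of all genes were called lower and 4.84% higher. PRDM14 had 3 counts over low Wnt + SB4 and 380 over low Wnt (ratio of low Wnt to low Wnt + SB4 136, interval 46.1 to 661), and NANOG had 1 count and 40 (ratio 42.8, interval 7.26 to 1730). ESRG fell by 3.73 ± 0.13 on the log2 scale (adjusted p = 4.29e-11), ZFP42 by 2.23 ± 0.17, L1TD1 by 1.18 ± 0.19 and DPPA4 by 0.73 ± 0.09. POU5F1 fell by 2.48 ± 0.49 (adjusted p = 0.00309), which was lost without low Wnt replicate 2 (log2 fold change -1.78, adjusted p = 0.0683), whereas the sum with its copies was 0.924 ± 0.101 CPM in low Wnt + SB4 and 6.79 ± 0.21 CPM in low Wnt (SD, n = 2). UTF1 (0 counts in low Wnt + SB4 and 10 in low Wnt, at least 3.57-fold lower, adjusted p = 0.0702), USP44 (-0.26 ± 0.11, adjusted p = 0.157) and SALL4 (-0.21 ± 0.13, adjusted p = 0.331) did not pass. UTF1 passed with no filter (adjusted p = 0.00251), by DESeq2 (adjusted p = 0.0260) and in 3 fits that left out 1 library each (adjusted p 0.0277 to 0.0479), and USP44 in the fit of these 4 libraries alone (adjusted p = 0.0421). The median of the 10, with genes at the floor set to it, was -2.03.

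At the high dose SB4 moved 1 of the 10, where 11.6% of all genes were called lower and 9.94% higher. ZFP42 was lower in high Wnt + SB4 than in high Wnt by a log2 fold change of -0.64 ± 0.17 (adjusted p = 0.0125), a call lost when any of the 4 libraries was left out (adjusted p 0.0527 to 0.0656) although the difference stayed between -0.65 and -0.63. The difference of the SB4 effects, high minus low dose, was positive and passed the test for ESRG (3.81 ± 0.37), ZFP42 (1.59 ± 0.24), L1TD1 (1.54 ± 0.27) and DPPA4 (0.71 ± 0.13), where 2.71% of all genes were called that way and 3.36% the other way. In high Wnt with no additive these 4 stood at 0.0634% (ESRG), 7.30% (ZFP42), 1.83% (L1TD1) and 16.4% (DPPA4) of hESC.

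The doses were then compared within each additive. In high Wnt + TGFB against low Wnt + TGFB, 9 of the 10 genes were lower, where 23.5% of all genes were called lower and 22.8% higher. ESRG differed by a log2 fold change of -7.99 ± 0.17 (adjusted p = 8.38e-15), L1TD1 by -4.19 ± 0.19, USP44 by -2.70 ± 0.13, ZFP42 by -2.20 ± 0.15 and DPPA4 by -1.46 ± 0.09. PRDM14 had 1 count over high Wnt + TGFB and 2069 over low Wnt + TGFB (ratio of low to high dose 1820, interval 327 to 72100), POU5F1 1 and 1296, NANOG 1 and 539, and UTF1 2 and 81. SALL4 did not pass (0.26 ± 0.13, adjusted p = 0.0987).

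In high Wnt against low Wnt, 8 genes were lower and SALL4 higher, where 19.1% of all genes were called lower and 19.4% higher. The falls were -6.42 ± 0.18 for ESRG, -1.88 ± 0.12 for USP44, -1.01 ± 0.09 for DPPA4, -0.76 ± 0.16 for ZFP42 and -0.73 ± 0.19 for L1TD1, and the L1TD1 call was lost without high Wnt replicate 1 (adjusted p = 0.0710) or low Wnt replicate 2 (adjusted p = 0.0895). POU5F1 had 3 counts against 105, PRDM14 3 against 380 and NANOG 0 against 40 (at least 10.7-fold lower). UTF1 had 2 counts against 10 and did not pass. SALL4 was higher by 0.79 ± 0.13.

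With SB4 at both doses, genes differed in both directions. ESRG (-2.60 ± 0.22), USP44 (-1.50 ± 0.12) and DPPA4 (-0.30 ± 0.09) were lower in high Wnt + SB4 than in low Wnt + SB4, while ZFP42 (0.83 ± 0.18), SALL4 (0.85 ± 0.13) and L1TD1 (0.81 ± 0.19) were higher, where 14.8% of all genes were called lower and 15.3% higher. The DPPA4 call (adjusted p = 0.0193) was lost without high Wnt + SB4 replicate 1 or either low Wnt + SB4 library (adjusted p up to 0.107) and with library totals alone (adjusted p = 0.0511). The L1TD1 call (adjusted p = 0.00371) was lost without high Wnt + SB4 replicate 2 or low Wnt + SB4 replicate 1 (adjusted p up to 0.0670). POU5F1 had 3 counts over high Wnt + SB4 and 20 over low Wnt + SB4 (ratio of low to high dose 6.33, interval 1.88 to 33.3) and did not pass (-2.55 ± 1.06, adjusted p = 0.0807). It passed with no filter (adjusted p = 0.00177), by DESeq2 (adjusted p = 0.0174) and without low Wnt replicate 1 or 2 (adjusted p = 0.0424 and 0.0421). NANOG, PRDM14 and UTF1 were at 3 counts or fewer in both groups.

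Over the 12 induced libraries, log2 CPM of POU5F1 and NANOG had a Pearson r of 0.963, and DPPA4 and ESRG one of 0.989. SALL4 correlated with the other genes between -0.715 and 0.11. These values are descriptions: the libraries fall into groups, and genes with the same high and low groups are bound to correlate.

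By the same measure over all 14 libraries, the tested gene most like NANOG among 11566 candidates was MARVELD3, a tight junction protein (r = 0.995). For POU5F1 and for ESRG it was UNC13A (r = 0.989 for both), and for PRDM14 it was JAKMIP2-AS1 (r = 0.995). ZFP42 lay nearest to STEAP3 (r = 0.990), DPPA4 to GPRC5B (r = 0.990), L1TD1 to KCNK1 (r = 0.990), USP44 to TSPAN33 (r = 0.988), UTF1 to CDCP1 (r = 0.981) and SALL4 to GAD1 (r = 0.958). Within the 12 induced libraries OTX2, a homeobox gene of epiblast and forebrain, was second for PRDM14 (r = 0.991) and LINC00458, a HERVH-linked transcript, first for NANOG (r = 0.990).

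Other genes of the pluripotent state did not all follow. Of 20 further genes listed by name, 19 were tested, and in low Wnt + TGFB against hESC 12 were lower, TRIM71 was higher and 6 did not pass, where 31.8% of all genes were called lower and 31.4% higher. Of the 19, the smallest shares of hESC left were those of GDF3, a nodal-related ligand (4.94%), ZSCAN10 (17.8%) and TDGF1, the nodal co-receptor (20.3%). DPPA5, too low to be tested, had 3 counts over low Wnt + TGFB and 20 over hESC (ratio of hESC to low Wnt + TGFB 8.21, interval 2.43 to 43.1). The largest share was that of TRIM71 (160%), while LIN28B had 117% and SOX2 100%. Against low Wnt, 11 of the 19 were higher in low Wnt + TGFB and SOX2 was lower (log2 fold change -0.37), where 13.7% of all genes were called higher and 12.2% lower. DNMT3B, the de novo DNA methyltransferase, averaged 653 CPM in low Wnt + TGFB, 250.3 CPM in low Wnt and 2107 CPM in hESC, and LIN28A, which blocks let-7 processing, 1705, 1136 and 2019 CPM in the same groups.

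ESRG can be set beside other transcripts of its kind. Of 7 stem cell transcripts tied to HERVH elements, all 7 were lower than hESC in each induced group, where 31.8% to 36.1% of all genes were called lower. In low Wnt + TGFB, LINC00678 kept 13.8% (27.2 CPM, and 197.6 CPM in hESC), SCGB3A2 24.0% (6.75 and 28.1 CPM), LINC00458 5.47% (2.95 and 54.0 CPM) and HHLA1 0.574% (0.130 and 22.6 CPM), against 26.6% for ESRG. No test between ESRG and these transcripts was made.

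Genes of the naive state, which resembles the preimplantation epiblast, were low throughout. Of 11 listed, 7 were tested, and in low Wnt + TGFB against hESC KLF5 was higher and 3 were lower, where 31.4% of all genes were called higher and 31.8% lower. TFAP2C averaged 14.01 CPM in low Wnt + TGFB, 4.04 CPM in low Wnt and 10.4 CPM in hESC, TFCP2L1 2.55, 0.330 and 7.16 CPM, SUSD2 2.05, 1.15 and 4.28 CPM, and KLF4 2.55, 1.18 and 4.19 CPM in the same groups.

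Among related genes outside the 10, SALL1, a paralogue of SALL4, also stood higher in the induced groups, at 573 CPM in high Wnt + TGFB, 645 CPM in high Wnt + SB4, 625 CPM in high Wnt with no additive, 293 CPM in low Wnt + TGFB, 350.1 CPM in low Wnt + SB4 and 389 CPM in low Wnt, against 76.9 CPM in hESC. It was lower in low Wnt + TGFB than in low Wnt (log2 fold change -0.41, adjusted p = 0.0051). SALL2 averaged 259.5 to 606 CPM in the induced groups and 686 CPM in hESC. USP49, a paralogue of USP44, averaged 61.9 to 148 CPM in the induced groups and 34.8 CPM in hESC. YY1, the gene from whose family ZFP42 arose, stayed between 106.5 and 144 CPM in all 7 groups.

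Genes next to the 10 on their chromosomes differed in whether they moved too. TRIML2, 86222 bases from ZFP42, averaged 6.61 CPM in low Wnt + TGFB, 0.452 CPM in low Wnt and 60.3 CPM in hESC (log2 fold change of low Wnt + TGFB over hESC -3.18, adjusted p = 2.75e-08). VENTX, a homeobox gene 6345 bases from UTF1, averaged 7.07, 0.784 and 10.9 CPM in the same groups, and DPPA2, 9623 bases from DPPA4, 3.31, 1.85 and 13.4 CPM. METAP2, whose end lies 722 bases from the end of USP44 on the other strand, averaged 214 to 244 CPM in all 7 groups. ATP9A, 15632 bases from SALL4, was higher than hESC as SALL4 was: in high Wnt it averaged 75.2 CPM, in hESC 13.4 CPM (log2 fold change 2.48, adjusted p = 1.37e-10). SLC2A14, 16450 bases from NANOG, averaged 16.5 CPM in low Wnt + TGFB, 6.27 CPM in low Wnt and 15.4 CPM in hESC, and TCF19, 121 bases from POU5F1, 1.15, 0.814 and 1.28 CPM.

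**Figure D4:**
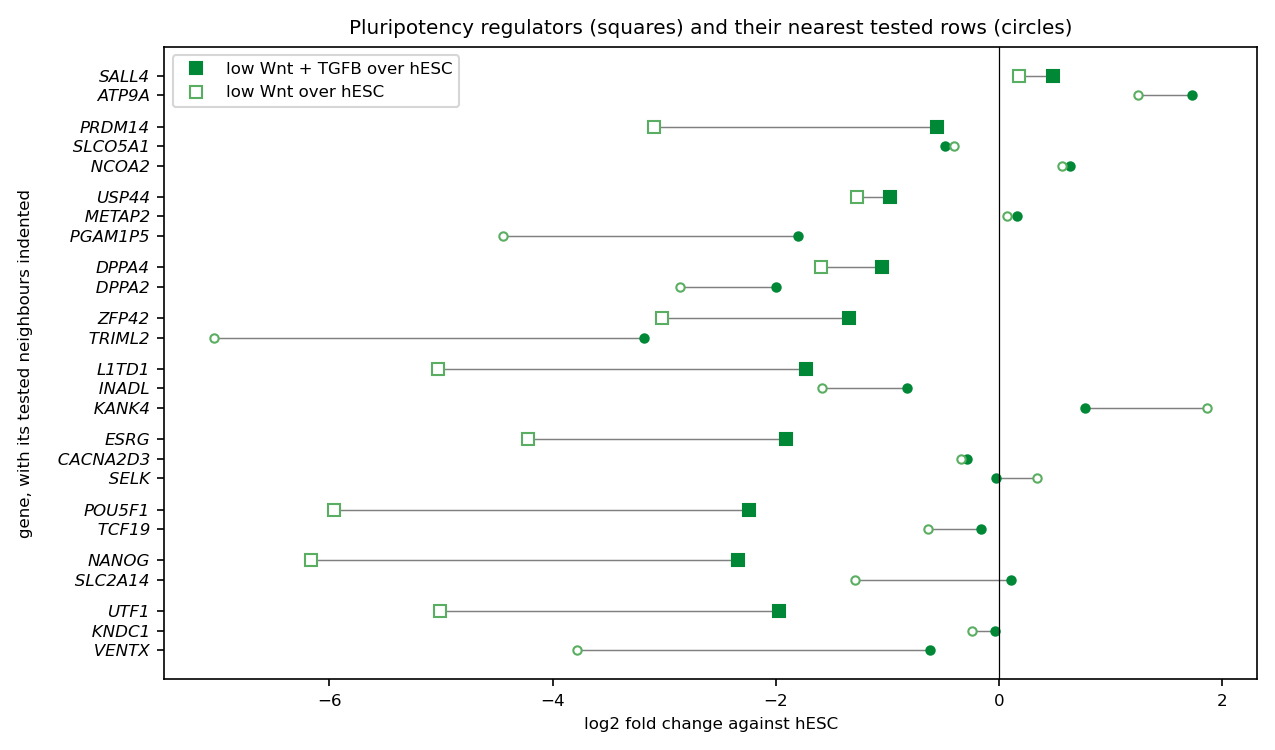
Log2 fold change against hESC for each of the 10 genes (squares) and the tested genes next to it on its chromosome (circles); filled marks stand for low Wnt + TGFB over hESC and open marks for low Wnt over hESC. TRIML2 beside ZFP42 and VENTX beside UTF1 lie left of 0 with their neighbours, METAP2 beside USP44 lies near 0, and ATP9A lies right of 0 with SALL4.

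Markers of other cell types also differed between these groups. A list of 6 stem cell and epiblast markers (SOX2, LIN28A, TDGF1, DNMT3B, CDH1 and EPCAM) summed to 2996 to 3421 CPM per library in low Wnt + TGFB, 1867 to 1966 CPM in low Wnt and 6133 to 6278 CPM in hESC. The epithelial adhesion genes in it, CDH1 and EPCAM, averaged 126 and 126.5 CPM in low Wnt + TGFB, 11.4 and 12.9 CPM in low Wnt, and 340.1 and 283 CPM in hESC. Of 7 mesendoderm markers 6 were over 1 CPM in low Wnt + TGFB, with sums of 42.1 to 86.2 CPM per library. In low Wnt it was 0 of 7 and 2.50 to 2.75 CPM, and in hESC 2 of 7 and 3.55 to 4.83 CPM. The high Wnt sums were 47.3 to 49.7 with TGFB, 36.9 to 41.7 with SB4 and 50.8 to 59.65 CPM with no additive. Over 1 CPM in these groups were 2, 1 and 2 of the 7 markers. SOX17, which marks endoderm and primordial germ cells, averaged 23.5 CPM in low Wnt + TGFB, 0.360 CPM in low Wnt and 0.0794 CPM in hESC, and FOXA2, an endoderm factor, 19.2, 0.906 and 0.164 CPM. Of 9 germ cell markers 6 were over 1 CPM in low Wnt + TGFB (sums 102 to 132 CPM, mostly KIT at 64.1 CPM). In low Wnt it was 4 of 9 and 55.59 to 61.03 CPM, and in hESC 5 of 9 and 67.34 to 67.48 CPM. The sums were 65.81 to 71.36 CPM in low Wnt + SB4 and 64.85 to 69.67 CPM in high Wnt + TGFB. They were 92.75 to 101.9 CPM in high Wnt + SB4 and 85.41 to 91.58 CPM in high Wnt. Among the less abundant germ cell markers, DAZL averaged 2.216 CPM in low Wnt + TGFB, 0.6631 CPM in low Wnt and 3.165 CPM in hESC. In the same groups DPPA3 averaged 0.414, 0.03044 and 1.774 CPM, and DND1 1.254, 1.54 and 2.075 CPM. NANOS3 and DDX4 stood at 0.0941 and 0.194 CPM in low Wnt + TGFB.

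Neural crest markers, 9 in number, summed to 349 to 375 CPM in high Wnt + TGFB, 332 to 348 CPM in high Wnt + SB4, 284 to 308.5 CPM in high Wnt with no additive, 111 to 119 CPM in low Wnt + TGFB, 83.9 to 88.1 CPM in low Wnt + SB4, 67.4 to 73.1 CPM in low Wnt and 128 to 136 CPM in hESC. SOX10, the marker of committed neural crest, was at 0.587 to 6.34 CPM in all 7 groups and no higher in any induced group than 6.34 CPM, against 5.63 CPM in hESC. The high Wnt sums were mostly PAX3, which averaged 253 CPM in high Wnt + TGFB, 237 CPM in high Wnt + SB4, 173 CPM in high Wnt with no additive and 7.61 to 17.1 CPM in the low Wnt groups, and the hESC sum was mostly ETS1 and FOXD3. TFAP2A was at 0.0755 to 0.139 CPM in the high Wnt groups and 3.17 to 15.5 CPM in the low Wnt groups, and TFAP2B at 0 to 0.0318 CPM and 2.43 to 4.38 CPM. Over 1 CPM were 5 of 9 markers in high Wnt + TGFB, 5 in high Wnt + SB4, 6 in high Wnt, 9 in low Wnt + TGFB, 8 in low Wnt + SB4, 7 in low Wnt and 4 in hESC. A list of 4 neural plate markers summed to 79.0 to 80.1 CPM in low Wnt + TGFB, 484 to 537 CPM in low Wnt + SB4, 282 to 300.2 CPM in low Wnt and 61.1 to 83.5 CPM in hESC. Across the low Wnt groups alone, their order was the reverse of that of NANOG, POU5F1 and PRDM14. The high Wnt sums were 12.45 to 13.61 CPM with TGFB, 100.8 to 115 CPM with SB4 and 21.18 to 21.93 CPM with no additive. NANOG, POU5F1 and PRDM14 had at most 3 counts over each of these high Wnt groups. A list of 6 trophoblast and amnion markers summed to 21.2 to 33.3 CPM in low Wnt + TGFB, 8.34 to 11.1 CPM in low Wnt and 11.5 to 12.5 CPM in hESC, and its high Wnt sums of 176 to 359 CPM were mostly CDX2. The part of these markers, and of the cells they mark, in the levels of the 10 genes was not tested.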

How the data were processed

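The deposited values are the authors' raw counts, in 1 table that covers the 14 libraries. The tools were HISAT2 2.2.0, featureCounts 2.0.0, SAMtools 1.10 and bcl2fastq, with the hg38 build, per the submitters' processing notes. Per the file headers, fragments were counted by strand over exons, and multiply mapped reads were not counted. Per the labels' protocols, poly(A) RNA from 500000 cells was used with a directional kit.

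The counts were tested with edgeR 4.0.16 under R 4.3.3: genes kept by filterByExpr, TMM scaling, and quasi-likelihood F-tests from 1 fit of all 14 libraries, with 15 contrasts and 7 residual degrees of freedom. Calls were made where p, adjusted after Benjamini-Hochberg over all 16149 genes tested, was under 0.05. CPM and FPKM were computed from the deposited counts; FPKM used exon length on the primary chromosome (2768 bases for POU5F1, deposited as 19454 over 7 contigs). In every group replicates lay further apart than counting noise (chi-square 5.26 to 14.1 per degree of freedom). The code was tested on simulated data.

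The 10 genes and the lists were chosen with earlier results of these data known. Besides the 10 genes, the text names from each list the 4 genes that lead it by level in hESC, or by share of hESC for the list of other pluripotency genes, the nearest neighbours, and the genes of most similar pattern; further genes, such as those of the marker lists, were named after their values were seen. A gene of the list of other pluripotency genes that this rule names is not reported here. The alternatives were RLE scaling, library totals alone, no filter, a replicate block, fits without hESC or of the compared groups alone, DESeq2 1.42.0, a minimum log2 fold change of 1, and dropping single libraries in turn. The sum of POU5F1 with its copies was added after seeing the data. Promoter letters are from RefSeq.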

Additional observations from a re-analysis of the deposited data

Results flagged for a closer look

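The effect of an additive differed between the CHIR99021 doses for 9 pairs of gene and additive, by the test of the difference itself (edgeR quasi-likelihood, adjusted over all genes tested). Each value is the log2 effect at the high dose minus that at the low dose, with its SE. For SB4 the differences were 3.81 ± 0.37 for ESRG (adjusted p = 5.74e-06), 1.59 ± 0.24 for ZFP42 (adjusted p = 0.000543), 1.54 ± 0.27 for L1TD1 (adjusted p = 0.00183) and 0.71 ± 0.13 for DPPA4 (adjusted p = 0.00288). For TGFB they were -3.46 ± 0.27 for L1TD1 (adjusted p = 2.82e-07), -1.57 ± 0.35 for ESRG (adjusted p = 0.00681), -1.44 ± 0.22 for ZFP42 (adjusted p = 0.000299), -0.82 ± 0.17 for USP44 (adjusted p = 0.00401) and -0.45 ± 0.13 for DPPA4 (adjusted p = 0.0335). The doses share no library in these differences, but the additive effects at 1 dose share the libraries with no additive. The DPPA4 and ESRG calls for TGFB depended on single libraries, as given above. With 1 library left out, the difference ran from -0.542 to -0.385 for DPPA4 and from -1.838 to -1.339 for ESRG. ESRG had only 12 to 26 counts per library in the high Wnt groups.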

How the results depend on the processing

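With a log2 fold change of at least 1 asked for, calls over all genes dropped to 6829, 6684, 6973, 4765, 6490 and 6550 for high Wnt + TGFB, high Wnt + SB4, high Wnt, low Wnt + TGFB, low Wnt + SB4 and low Wnt against hESC (from 11647, 11631, 11692, 10197, 11501 and 11535), to 3293, 2344 and 2774 for the dose with TGFB, with SB4 and with no additive (from 7469, 4854 and 6223), to 428 and 962 for TGFB and SB4 at the high dose (from 1170 and 3476), to 1654 and 711 at the low dose (from 4196 and 1814), and to 1064 and 576 for the dose differences of TGFB and SB4 (from 1905 and 981). Of the 10 genes it kept 2 for the dose with SB4 (from 6), 0 for TGFB and 0 for SB4 at the high dose (from 1 each), and 3 for the TGFB dose difference (from 5). With no filter, 2 of the 10 were called for SB4 at the high dose.

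Leaving out 1 library gave 0 to 1 of the 10 genes for TGFB and for SB4 at the high dose. Over all genes it gave 538 to 1490 and 1942 to 3956 for TGFB and SB4 at the high dose, 2347 to 4621 and 784 to 2166 at the low dose, and 1251 to 2189 for the TGFB dose difference. Where this left 1 library in a group, it was assumed to vary like the others. The other counts of calls stayed within 1.5 times under every alternative run. No called value changed sign.

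Library totals alone shifted the median of all genes against hESC by 0.136 in high Wnt + TGFB, 0.133 in high Wnt + SB4 and 0.172 in low Wnt + TGFB (log2), and moved the share of calls that were higher to 60.1% (49.7% with TMM) for low Wnt + TGFB against hESC, 66.8% (52.9%) for it against low Wnt, 66.2% (51.8%) for high Wnt + TGFB and 57% (46.2%) for high Wnt + SB4 against high Wnt. Over 21 pairs of groups the deviations of same-numbered libraries correlated weakly, between -0.116 and 0.206, with 5 over 0.1. Among the high Wnt groups the values were 0.111 to 0.206. In every induced group SALL4 was higher in replicate 1, and ZFP42 and L1TD1 were higher in replicate 2. In hESC each of these was the other way round. Weak correlations over all genes cannot settle whether same-numbered libraries were paired. Under the replicate block SALL4 passed for low Wnt + TGFB against low Wnt (0.31, adjusted p = 0.0331), for high Wnt + TGFB against low Wnt + TGFB (0.26, adjusted p = 0.0484) and for the TGFB dose difference (-0.53, adjusted p = 0.0228), and USP44 for the first of these (0.29, adjusted p = 0.0293). The cause of these moves was not tested. At this depth 3 counts in 1 library are 0.157 to 0.269 CPM, so levels of NANOG, POU5F1, PRDM14 and UTF1 in the high Wnt groups were not measurable apart from one another.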
